A study of Mus musculus with 6 samples.

Results

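The genes described here are 48 components of Wnt signalling: 13 Wnt ligands, 3 R-spondins, 15 receptors and co-receptors, 10 antagonists, and 7 transducers and targets. They were a fixed list of gene symbols, chosen with earlier results of these data known. A probe set is the group of oligonucleotides on an array that reads 1 transcript. It counted for a gene when the array's annotation gave it that symbol alone. All 48 genes were represented, by 99 probe sets, among 18193 named genes in all, and each gene is shown by its brightest probe set over the 6 arrays. The tissue was the whole mammary gland of virgin FVB/N females aged 4 months, with 1 single-channel array per gland. There were 3 wild-type samples and 3 from Cav-3 knockout (KO) mice, which lack caveolin-3, the coat protein of caveolae in muscle cells. Both genotypes share strain, sex, age and virgin state, and the labels list no treatment. Whether each gland came from a separate mouse, how the knockout allele was made and the stage of the oestrous cycle are not stated in the labels. The p-values set the genotype difference against the spread among samples of the same genotype, which may not be separate mice.

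Wnts are lipid-modified secreted proteins that bind Frizzled receptors together with the co-receptors Lrp5 and Lrp6, which spares beta-catenin from degradation and lets it act with TCF/LEF factors on target genes. R-spondins bind Lgr4, Lgr5 and Lgr6 and remove the ubiquitin ligases Rnf43 and Znrf3, which otherwise clear Frizzleds from the cell surface. In the mammary gland, Wnt4 acts downstream of progesterone in side-branching, and Rspo1 and Wnt4 together support mammary stem cells.

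Values below are log2 expression values as deposited, and differences are knockout minus wild type on that scale, so that 1 is a 2-fold change. Array medians lay between 5.77 and 5.80, and correlations over all probe sets were 0.990 to 0.995 within a genotype and 0.977 to 0.987 between genotypes. The probe set of Cav3 itself averaged 4.85 ± 0.15 (SD, n = 3) on the wild-type arrays. Its knockout mean was 4.77 ± 0.06, with no call (adjusted p = 0.679), and where it lies relative to the disrupted part is not stated, so it gives no check of genotype. Probe sets of Y-linked genes, absent from female mice, gave a level for transcripts that are not there: 9 sets of Uty, Kdm5d and Eif2s3y read 1.90 to 3.57 on single arrays, and all 15 Y-linked sets read 1.90 to 6.36. All 6 arrays of Dkk1 lay at or below the first of these bounds and all 6 arrays of 11 members at or below the second. These 11 were Wnt2b, Wnt10a, Wnt10b, Wnt11, Wnt16, Rspo2, Rspo3, Fzd9, Lrp5, Dkk1 and Sfrp5. The wild-type arrays of Rspo1, Rnf43 and Wif1 also lay inside the second range, as did some arrays of Fzd5, Dkk2 and Wnt5a. Folds of these genes are ratios of readings and not exact ratios of transcript.

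In the knockout gland 12 of the 48 members were higher and 5 were lower at an adjusted p under 0.05 (limma, Benjamini-Hochberg adjustment over all probe sets), and 31 did not pass. Leaving out 1 array took the higher members to 7 without wild type 2 and to 6 without wild type 3, and the lower ones to 3 without wild type 3 or knockout 3. The 12 were Rspo1, Lgr6, Rnf43, Wif1, Wnt5b, Fzd5, Wnt4, Fzd3, Tcf7l2, Fzd6, Dkk3 and Tcf7l1, and the 5 were Wnt5a, Dkk2, Lrp6, Sfrp4 and Lef1. Members past the threshold made up 35.4% of the list, beside 16.2% of all 18193 genes. Because the list was chosen with earlier results of these data known, this share is a description and was not tested. In each direction alone, 12 of 48 members were higher, beside 7.65% of all genes, and 5 of 48 were lower, beside 8.51%. A change of at least 2-fold past the threshold was found in 8 of 48 members, beside 667 of all 18193 genes (3.67%). Rspo1, Rnf43, Wif1, Fzd5, Wnt5a and Dkk2, among these 8, had readings in the wider Y-linked range, so their folds are not exact. Genotypes did not overlap for 26 members (54.2%, beside 38.3% of all genes). The median difference over the members was 0.05, against −0.01 over all genes, and 25 members had a difference above 0 and 22 below. Among the 99 probe sets 15 were higher and 8 lower (23.2%, against 12.3% of all probe sets).

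**Figure D1:**
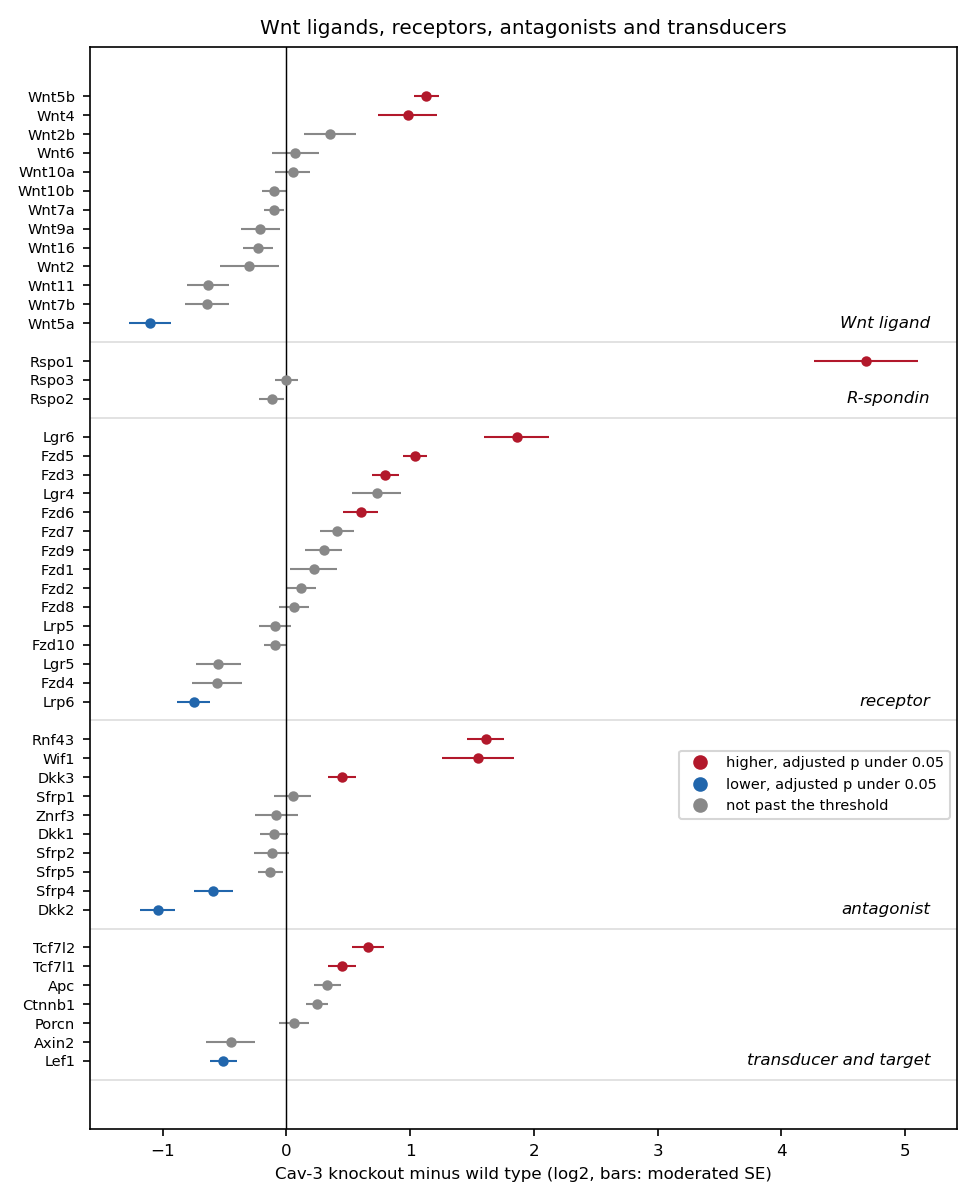
Difference in log2 expression between Cav-3 knockout and wild-type glands (x axis) for each of the 48 members, by class, with the moderated standard error as the bar (3 arrays per genotype). Red and blue points passed the threshold. Rspo1 stands far to the right at 4.68, while most members lie within 1 unit of 0.

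The R-spondin Rspo1, a secreted protein that strengthens Wnt signals at the receptor, had the largest difference of the 48 members. Its wild-type arrays 1 to 3 read 5.21, 5.15 and 5.13, and knockout arrays 1 to 3 read 10.16, 8.72 and 10.66. The groups were far apart, with nearly identical wild-type values and knockout 2 the lowest of its group. The rise in the reading was 4.68 ± 0.42 (SE), a ratio of readings of 25.7 (adjusted p = 0.00129), and it lay between 4.28 and 5.25 when any 1 array was left out. The wild-type values fell inside the wider range of Y-linked probe sets, so they do not show that the transcript was present there, and the ratio does not fix the fold of the transcript. Rspo2 and Rspo3, which bind the same receptors, did not pass. Rspo2 differed by −0.12 (95% interval −0.35 to 0.10) and the brighter set of Rspo3 by 0.00 (−0.22 to 0.22). A dimmer Rspo3 set read 3.45, 3.59 and 3.73 in wild type and 3.17, 3.25 and 2.93 in knockout. It fell by 0.47 ± 0.12 (adjusted p = 0.0391), and all of its knockout readings lay in the range of the Uty, Kdm5d and Eif2s3y sets.

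The stretch of 250 bases before the transcription start is shown for Rspo1, the member with the largest rise, and for Dkk2, the steepest fall among members with an entry. It is also shown for the 2 start sites of Wnt5b whose stretches hold a motif match. A further Wnt5b stretch (GC content 75.2%) held neither motif and is not shown. Sequences are from RefSeq (GRCm38.p6), which listed 39 such stretches for 30 of the 48 members and for 11 of the 17 past the threshold. Each is written 5′ to 3′ on the gene's own strand, in lower case with motif matches in capitals. The motifs searched on both strands were CTTTGAA or CTTTGAT, the core bound by TCF/LEF factors, and TTCNNNGAA, the element bound by STAT factors.

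Rspo1, GRCm38.p6 chr4:124986180-124986429, plus strand: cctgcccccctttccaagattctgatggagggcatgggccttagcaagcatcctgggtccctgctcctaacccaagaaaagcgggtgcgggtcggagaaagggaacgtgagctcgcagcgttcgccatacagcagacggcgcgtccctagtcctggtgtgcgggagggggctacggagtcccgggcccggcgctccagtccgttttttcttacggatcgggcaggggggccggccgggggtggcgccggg

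Wnt5b, GRCm38.p6 chr6:119467212-119467461, minus strand: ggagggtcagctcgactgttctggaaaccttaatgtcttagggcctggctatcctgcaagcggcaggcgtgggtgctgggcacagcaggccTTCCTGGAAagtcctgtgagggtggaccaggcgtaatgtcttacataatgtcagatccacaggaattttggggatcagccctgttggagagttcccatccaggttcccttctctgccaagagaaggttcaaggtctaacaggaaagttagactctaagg

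Wnt5b, GRCm38.p6 chr6:119449387-119449636, minus strand: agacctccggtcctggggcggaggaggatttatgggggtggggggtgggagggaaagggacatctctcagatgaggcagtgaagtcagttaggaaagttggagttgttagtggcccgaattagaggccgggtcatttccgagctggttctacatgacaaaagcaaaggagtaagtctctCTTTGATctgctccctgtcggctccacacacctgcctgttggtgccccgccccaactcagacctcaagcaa

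Dkk2, GRCm38.p6 chr3:132085042-132085291, plus strand: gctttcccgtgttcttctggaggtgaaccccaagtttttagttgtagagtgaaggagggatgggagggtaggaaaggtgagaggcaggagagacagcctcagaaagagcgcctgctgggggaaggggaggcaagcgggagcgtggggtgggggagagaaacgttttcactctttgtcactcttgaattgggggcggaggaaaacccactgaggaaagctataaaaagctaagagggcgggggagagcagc

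The TCF/LEF core occurred in 3 of the 39 member stretches (7.69%), those of Dkk1, Wnt11 and Wnt5b, and in 7.48% of all 32851 stretches. In Wnt5b it covers bases 180 to 186 of the second stretch shown, while the stretches of Dkk1 and Wnt11 are not shown. The STAT element occurred in 1 member stretch (2.56%, against 7.02% of all), at bases 92 to 100 of the other Wnt5b stretch shown. Neither motif occurred in the Rspo1 or Dkk2 stretch. Member stretches had a median GC content of 66.4%, against 52.4% over all stretches, with 66.8% for Rspo1 and 55.6% for Dkk2. A match of letters is a description of these stretches and not a binding site.

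Among the 13 ligands, Wnt5b and Wnt4 were higher and Wnt5a was lower (23.1%, beside 16.2% of all genes), while the other 10 did not pass. Shares of single classes rest on few genes and were not tested. Wnt5b, a ligand mostly linked to signalling that does not use beta-catenin, read 7.37, 7.16 and 7.18 in wild type and 8.27, 8.50 and 8.35 in knockout. Both groups were tight and did not overlap. It rose by 1.13 ± 0.10 (adjusted p = 0.00128), and its second probe set rose by 2.09 ± 0.26 (adjusted p = 0.00385). The wild-type readings of that second set (6.19, 5.93 and 5.62) lay inside the wider range of Y-linked probe sets, so its fold is not fixed. Wnt5a, the close relative of Wnt5b and a known restraint on mammary branching, went the other way. It read 7.68, 7.42 and 7.92 in wild type and 6.90, 6.49 and 6.35 in knockout, with every knockout value below every wild-type value. It fell by 1.10 ± 0.17 (adjusted p = 0.00866). Of its 4 probe sets 3 passed, with falls of 1.10, 0.90 and 0.69, and the fourth had a difference of −0.36 (adjusted p = 0.0558). All sets but the brightest lay inside the wider range of Y-linked probe sets on every array, which limits what they add.

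Wnt4, the ligand that relays progesterone signals in the gland, read 8.81, 8.05 and 8.15 in wild type and 9.67, 8.93 and 9.33 in knockout. The groups did not overlap, with wild type 1 close under the lowest knockout. It rose by 0.98 ± 0.24 (adjusted p = 0.0380). The second probe set of Wnt4 overlapped between genotypes and did not pass (difference 0.80 ± 0.27, adjusted p = 0.0987). Wnt4 lost its call without wild type 2 or 3 (adjusted p = 0.114 and 0.124) and without knockout 1 or 3 (0.0941 and 0.116), with all its probe sets averaged (0.0640) and with the muscle marker mean as a covariate (0.1).

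The ligands that did not pass covered a wide range. Wnt7b, an epithelial ligand, read 7.54, 7.19 and 7.74 in wild type and 7.11, 6.88 and 6.57 in knockout (difference −0.64 ± 0.18, adjusted p = 0.0561). Wnt11, linked to cell movement in branching organs, read 6.11, 6.19 and 6.15 against 5.82, 5.63 and 5.11 (difference −0.63 ± 0.17, adjusted p = 0.0510). Both genes had all knockout values below all wild-type values and stood just short of the threshold, and both passed without knockout 1 (adjusted p = 0.0478 and 0.0303). Both also passed with dim probe sets filtered out (0.0422 and 0.0385), with a trended robust prior (0.0496 and 0.0442) and with array weights (0.0360 and 0.0358), so that 3 ligands in place of 1 were then lower. Wnt7b passed as well with the muscle covariate (0.0150) and without wild type 2 (0.0428). Wnt11 has 1 probe set, so averaging sets left its difference at −0.63. It passed in that fit on gene means (0.0496). Differences of the other 8 ligands ran from −0.30 for Wnt2 to 0.35 for Wnt2b. They were −0.23 for Wnt16, −0.21 for Wnt9a, −0.10 for Wnt7a, −0.10 for Wnt10b, 0.05 for Wnt10a and 0.07 for Wnt6. Wnt6 and Wnt10a are neighbours in the genome, as are Wnt10b and Wnt1, and Wnt9a and Wnt3a. None of these 6 passed: Wnt1 differed by −0.03 and Wnt3a by −0.06. The acyltransferase Porcn, which attaches the lipid that Wnts need for secretion, differed by 0.06 (95% interval −0.21 to 0.33).

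**Figure D2:**
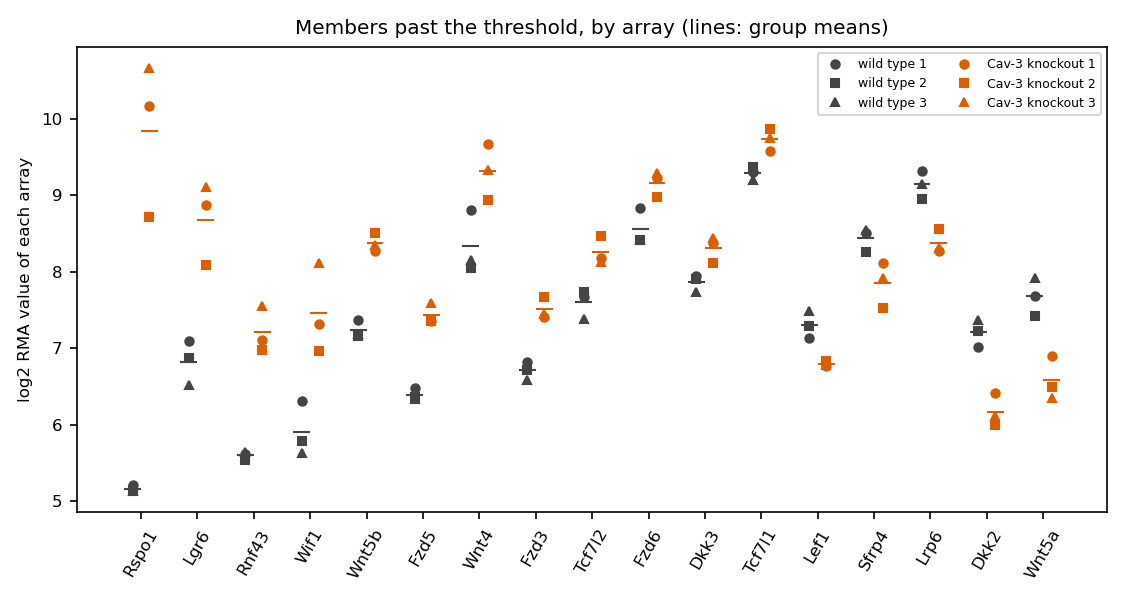
Log2 value of every array (y axis) for the 17 members past the threshold, ordered by difference, with wild type in dark grey and Cav-3 knockout in orange. Marker shape gives the replicate number and short lines give group means. On the brightest sets, shown here, the genotypes do not overlap for any of the 17 genes. Knockout 2 (square) is the lowest knockout for Rspo1, Lgr6, Rnf43 and Wif1.

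Of the 15 receptors 4 were higher and 1 lower (33.3%, beside 16.2% of all genes). Lgr6, one of the receptors of R-spondins, read 7.09, 6.87 and 6.52 in wild type and 8.87, 8.09 and 9.10 in knockout, a clear separation. It rose by 1.86 ± 0.26 (adjusted p = 0.00565), or 3.63-fold, and its second probe set rose by 1.07 ± 0.18 (adjusted p = 0.0115). The wild-type readings of that second set (5.45, 4.99 and 5.08) lay inside the wider range of Y-linked probe sets. The other receptors of R-spondins did not pass. Lgr4 read 9.07, 9.01 and 9.18 in wild type and 9.44, 10.30 and 9.73 in knockout (difference 0.73 ± 0.20, adjusted p = 0.0515). Lgr5 read 6.17, 6.64 and 6.61 against 5.94, 6.20 and 5.63 (difference −0.55 ± 0.18, adjusted p = 0.0866). All Lgr4 knockout values lay above wild type, while knockout 2 overlapped the wild-type range for Lgr5. Lgr4 passed with median centring, the filter on dim sets, the trended prior or array weights (adjusted p = 0.0373 to 0.0494), and without knockout 1 or 2 (0.0238 and 0.0381), and Lgr5 without knockout 2 (0.0420).

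Frizzled receptors, which bind Wnts directly, passed for 3 of 10 genes, all higher, beside 7.65% of all genes higher. Fzd5 read 6.48, 6.36 and 6.34 in wild type and 7.36, 7.36 and 7.59 in knockout. The spread within each genotype was small beside the rise of 1.04 ± 0.10 (adjusted p = 0.00157). Its dimmer probe set differed by 0.59 ± 0.16 (adjusted p = 0.0549). Fzd3 read 6.82, 6.71 and 6.59 against 7.41, 7.67 and 7.45, a rise of 0.80 ± 0.11 (adjusted p = 0.00487). Only the brightest of the 6 Fzd3 probe sets passed, the other 5 differed by 0.00 to 0.28, and with all 6 averaged the call was lost (adjusted p = 0.0754). Fzd6 read 8.83, 8.42 and 8.42 against 9.22, 8.97 and 9.29, a rise of 0.60 ± 0.14 (adjusted p = 0.0333). Its other 2 probe sets differed by −0.08 and 0.20, and their average with the first did not pass (adjusted p = 0.236). Fzd6 also lost its call without wild type 2 or 3 (0.104 and 0.112) or knockout 1 or 3 (0.0846 and 0.117), and with the mean of the skeletal muscle markers as a covariate (0.0687).

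The other 7 Frizzled genes had differences between −0.56 and 0.41. Fzd4, which also binds norrin in blood vessels, read 9.33, 9.20 and 10.02 in wild type and 9.06, 8.97 and 8.83 in knockout (difference −0.56 ± 0.20, adjusted p = 0.117), with wild type 3 the highest. With the mean of the skeletal muscle markers as a covariate it passed (difference −0.84, adjusted p = 0.0116). Fzd7, a receptor of basal mammary cells, differed by 0.41 ± 0.14 (adjusted p = 0.0885), with all knockout values above wild type. Differences were 0.30 for Fzd9, 0.22 for Fzd1, 0.12 for Fzd2, 0.06 for Fzd8 and −0.09 for Fzd10.

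The co-receptor Lrp6 read 9.32, 8.95 and 9.14 in wild type and 8.27, 8.56 and 8.31 in knockout on its brighter probe set. All knockout values were below wild type, with a fall of 0.75 ± 0.13 (adjusted p = 0.0104). The second Lrp6 set read 7.98, 7.79 and 7.86 against 8.20, 8.06 and 7.98, a difference of 0.20 (adjusted p = 0.233). The 2 sets therefore had opposite signs, and their average did not pass (adjusted p = 0.0930). Lrp5, the other co-receptor, differed by −0.09 (95% interval −0.39 to 0.21) at a low level.

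**Figure D3:**
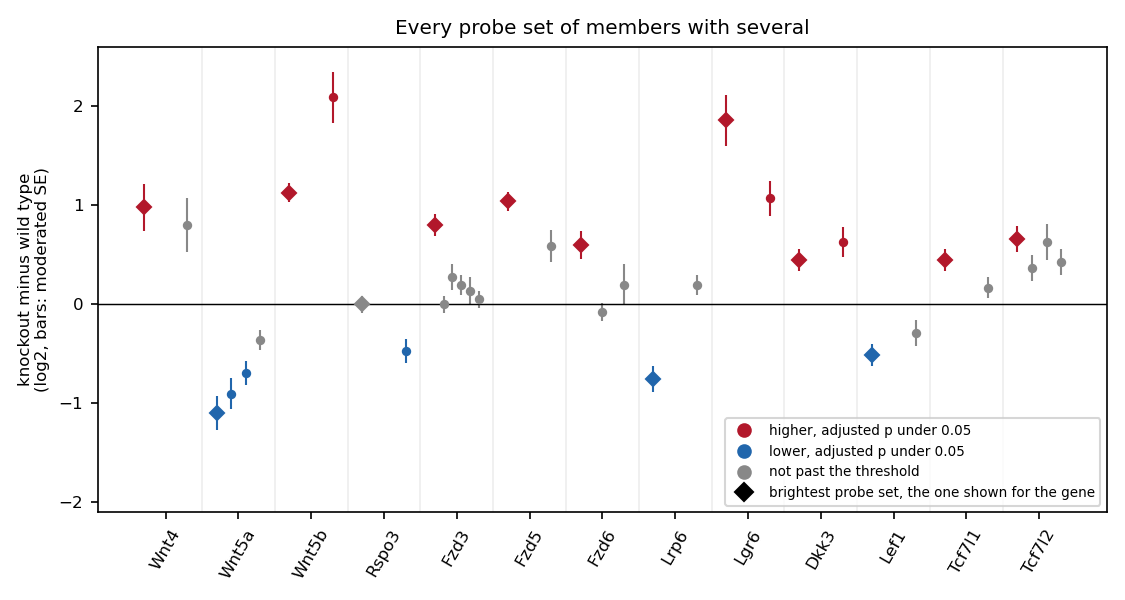
Difference in log2 expression (y axis, knockout minus wild type, bars: moderated standard error) for every probe set of the 12 members past the threshold that have several, and of Rspo3. Diamonds mark the brightest set of a gene. Both sets of Wnt5b, Lgr6 and Dkk3 passed the same way, while the sets of Fzd3, Fzd6 and Lrp6 differ from each other.

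Probe sets annotated to one gene can read different parts or forms of its RNA, so they bear on how firmly a single value can be taken. Of the 17 members past the threshold 12 had more than 1 set, and in 3 of these (Wnt5b, Lgr6 and Dkk3) every set passed in the same direction. The other 5, Rspo1, Wif1, Rnf43, Dkk2 and Sfrp4, rest on 1 set each.

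Antagonists moved in both directions, with 3 of 10 higher and 2 lower. Rnf43, the surface ubiquitin ligase that removes Frizzleds and is itself removed through R-spondins, read 5.62, 5.54 and 5.64 in wild type and 7.10, 6.97 and 7.55 in knockout. Wild-type values were almost equal and far below all knockout values. Its reading rose by 1.61 ± 0.15 (adjusted p = 0.00135) from wild-type values inside the wider range of Y-linked probe sets, so the fold of the transcript is not fixed. Its partner Znrf3 differed by −0.08 (95% interval −0.46 to 0.30). Wif1, a secreted protein that binds Wnts, read 6.31, 5.79 and 5.63 against 7.32, 6.96 and 8.11. The groups were apart, each with one high array, and the reading rose by 1.55 ± 0.29 (adjusted p = 0.0155). Its wild-type values, too, lay inside the wider range of Y-linked probe sets. Wif1 lost its call without wild type 2 or 3 (adjusted p = 0.0522 and 0.0594).

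Dickkopf proteins, of which Dkk1 and Dkk2 bind the Lrp co-receptors, did not move as one. Dkk2 read 7.02, 7.23 and 7.37 in wild type and 6.41, 5.99 and 6.11 in knockout. It fell by 1.04 ± 0.14 (adjusted p = 0.00497), with no overlap. Dkk3, a divergent member of the family, read 7.94, 7.90 and 7.74 against 8.37, 8.11 and 8.44. It rose by 0.45 ± 0.11 (adjusted p = 0.0408), and its second set rose by 0.63 ± 0.15 (adjusted p = 0.0318). Dkk3 lost its call when any array but knockout 2 was left out (adjusted p = 0.0791 to 0.134) and with the mean of the skeletal muscle markers as a covariate (0.0652). Dkk1 stayed at the level of the Y-linked sets on every array, between 2.88 and 3.23.

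Secreted Frizzled-related proteins, decoys that bind Wnts, passed for 1 of 4 genes, beside 16.2% of all genes. Sfrp4 read 8.51, 8.26 and 8.55 in wild type and 8.11, 7.52 and 7.92 in knockout. It fell by 0.59 ± 0.16 (adjusted p = 0.0487), close to the threshold, and lost the call when any array but knockout 1 was left out (0.0656 to 0.149). Sfrp1 differed by 0.05 (95% interval −0.30 to 0.41), and none of its 5 probe sets passed. Sfrp2 differed by −0.12 and Sfrp5 by −0.13.

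Of the 7 transducers and targets, Tcf7l2 and Tcf7l1 were higher and Lef1 lower (42.9%, beside 16.2% of all genes). All 3 encode factors that carry beta-catenin to DNA, and Tcf7l1 acts mostly as a repressor. Tcf7l2 read 7.67, 7.74 and 7.38 in wild type and 8.18, 8.47 and 8.13 in knockout, a rise of 0.66 ± 0.13 (adjusted p = 0.0187). Its other 3 sets differed by 0.37, 0.63 and 0.43 and did not pass. Tcf7l1 read 9.30, 9.37 and 9.20 against 9.58, 9.87 and 9.75, a rise of 0.45 ± 0.11 (adjusted p = 0.0323). Lef1 read 7.13, 7.29 and 7.48 against 6.77, 6.83 and 6.78, a fall of 0.51 ± 0.11 (adjusted p = 0.0210). No value of one genotype crossed into the other on these 3 brightest sets. The second sets of Lef1 (difference −0.29, adjusted p = 0.18) and Tcf7l1 (0.17, adjusted p = 0.363) overlapped between genotypes and did not pass. The Tcf7l2 set with a difference of 0.37 overlapped as well. Tcf7l2 lost its call without wild type 3 (0.0595). Tcf7l1 lost it when any array but knockout 1 was left out (0.0615 to 0.110) and with its 2 sets averaged (0.0763). Lef1 lost it without wild type 2 or 3 (0.0609 and 0.0646) or knockout 1 or 3 (0.0538 and 0.0734).

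Axin2, a negative regulator widely used as a readout of Wnt signalling through beta-catenin, did not pass. It read 8.26, 8.24 and 8.47 in wild type and 8.17, 7.38 and 8.05 in knockout, and knockout 2 was the lowest of the 6. The difference was −0.45 ± 0.20 (95% interval −0.91 to 0.01, adjusted p = 0.189). Its second probe set differed by 0.14 (adjusted p = 0.393). Ctnnb1, the beta-catenin gene, read 12.39, 12.30 and 12.15 against 12.50, 12.58 and 12.51 (difference 0.25 ± 0.09, adjusted p = 0.129). With its 3 sets averaged it passed (difference 0.39, adjusted p = 0.0440). Apc, a scaffold of the complex that degrades beta-catenin, differed by 0.33 ± 0.11 (adjusted p = 0.106).

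Within the knockout group the 12 higher members did not share one order. Knockout 2 had the lowest knockout value for 7 of them (Wnt4, Rspo1, Fzd6, Lgr6, Dkk3, Wif1 and Rnf43) and the highest for 4 (Wnt5b, Fzd3, Tcf7l1 and Tcf7l2). Knockout 3 had the highest value for 7 (Rspo1, Fzd5, Fzd6, Lgr6, Dkk3, Wif1 and Rnf43). With 3 arrays in the group this order is a description and was not tested.

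Other genes of the pathway were read from separate lists. Of 61 measured genes out of 63 listed, 4 were higher and 3 lower (11.5%, beside 16.2% of all genes), with a median of 0.02. Without wild type 3 or knockout 3 the higher ones numbered 2, and without knockout 2 they numbered 7. Only 1 was lower without wild type 2 or 3 or knockout 3. Of 8 further ligands, among them Rspo4 and norrin, 0 passed (limma), at values of 2.29 to 5.68 on single arrays, and 0 had an unadjusted p under 0.05. All these values lay inside the wider range of Y-linked probe sets (1.90 to 6.36), so the lack of calls says little about these ligands. Among 14 surface proteins Ror1, a receptor of Wnt5a, rose. It read 6.48, 6.53 and 6.19 in wild type and 7.51, 7.41 and 7.86 in knockout, a rise of 1.19 ± 0.15 (adjusted p = 0.00361). Ror2, its relative, differed by 0.08 (95% interval −0.16 to 0.31). Among 13 antagonists the corepressor gene Tle2 rose by 0.46 ± 0.09 (adjusted p = 0.0165) and Dact1, which binds Dishevelled, fell by 0.46 ± 0.10 (adjusted p = 0.0286). Among 14 transducers Ctnnbip1, an inhibitor of the contact between beta-catenin and TCF, rose by 0.51 ± 0.13 (adjusted p = 0.0372). Wls, a surface-list member which carries Wnts to the cell surface, differed by −0.06. Gsk3b, the kinase that marks beta-catenin for degradation, differed by 0.02.

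Of 12 known target genes outside the list 1 rose and 2 fell (25.0%, beside 16.2% of all genes). With so few genes this share is a description and was not tested. Myc, which drives cell growth and has many inputs besides Wnt, read 7.98, 7.76 and 8.09 in wild type and 9.32, 9.10 and 9.92 in knockout, a rise of 1.51 ± 0.20 (adjusted p = 0.00506). Ccn5, a matricellular protein, read 7.86, 8.47 and 8.02 against 6.90, 7.16 and 6.72, a fall of 1.19 ± 0.18 (adjusted p = 0.00706). Twist1, a mesenchymal transcription factor, fell by 0.64 ± 0.15 (adjusted p = 0.0310). Ccnd1 differed by 0.63 ± 0.24 (adjusted p = 0.137). Ror1, Myc and Ccn5 kept their calls without any 1 array. Tle2 lost its call without wild type 3 or knockout 3 (0.0630 and 0.0622), Dact1 without wild type 2 or 3 or knockout 3 (0.0880, 0.0990 and 0.0925), Ctnnbip1 without any wild type or knockout 3 (0.0680 to 0.107) or with the muscle covariate (0.0594), and Twist1 without any array but knockout 1 (0.0621 to 0.109).

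Marker transcripts of several cell types also differed between the genotypes. For the counts below, 7.65% of all genes were higher and 8.51% lower. In a whole gland, more cells of a type and more RNA per cell cannot be told apart. Mammary identity was plain: luminal markers such as Krt8 averaged 11.77 in wild type and 12.62 in knockout, and the basal marker Krt14 averaged 9.03 and 10.35. Of 9 measured luminal markers 7 were higher and 0 lower, and the list means were 8.59 to 9.17 over wild-type arrays against 9.77 to 10.06 over knockout arrays, a mean difference of 1.02. Of 10 basal markers 9 were higher and 0 lower, with means of 8.79 to 8.92 and 9.59 to 9.78, a mean difference of 0.85. White adipocyte markers were lower in 5 of 7 (mean difference −0.77, ranges 11.27 to 11.52 and 10.48 to 10.85). Brown adipocyte markers were lower in 4 of 6 (−1.79, 8.28 to 9.48 and 6.98 to 7.07) and lymphocyte markers in 6 of 7 (−0.66, 8.45 to 8.83 and 7.80 to 8.02).

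Fibroblast markers, with 0 of 8 higher and 1 lower, had a mean difference of 0.01 (12.03 to 12.44 and 11.95 to 12.56). Endothelial markers were higher in 1 of 6 and lower in 2 (−0.08, 8.47 to 8.66 and 8.35 to 8.64), and macrophage markers were lower in 1 of 6 (−0.29, means 8.61 or more in wild type and 8.59 or less in knockout). The shares past the threshold in the fibroblast (12.5%) and macrophage (16.7%) lists were near that of all genes (16.2%). Skeletal muscle markers overlapped, with list means of 5.31 to 8.31 in wild type and 4.92 to 6.67 in knockout. The mean difference was −1.15, with 7 of 9 markers below 0, and 0 of 9 passed (limma, 0 with an unadjusted p under 0.05). Their spread was wide (−1.46 ± 1.49 for Myh4), so this does not show equal muscle content. Epidermal and hair follicle markers stood at 4.04 to 4.17 on all arrays. The part of cell content in any of these differences was not tested.

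**Figure D4:**
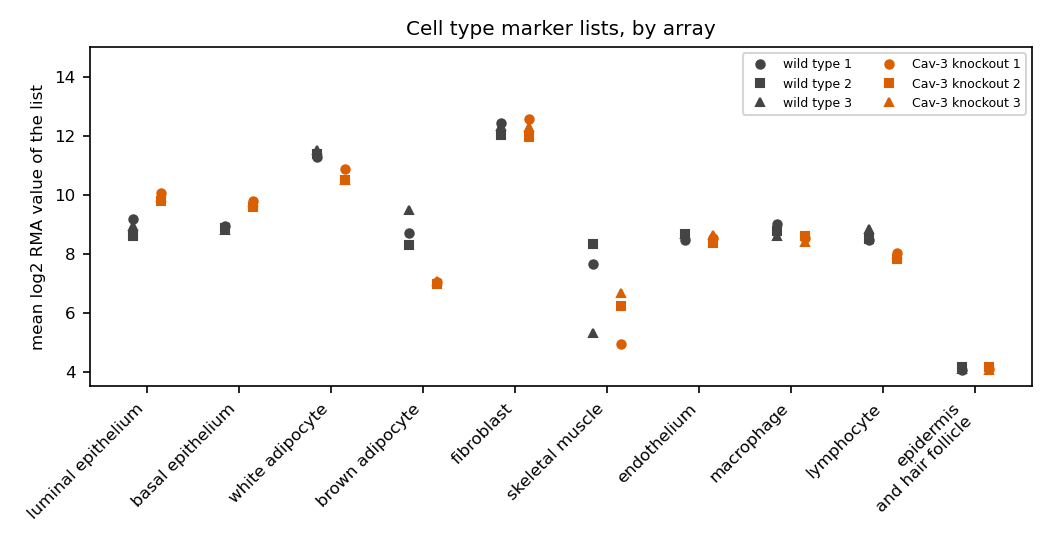
Mean log2 value of 10 cell type marker lists (y axis) on each array, wild type in dark grey and Cav-3 knockout in orange, with marker shape for the replicate number. Both epithelial lists lie higher in all 3 knockouts, both adipocyte lists and the lymphocyte list lie lower, and the skeletal muscle list varies widely within wild type.

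Position relative to the disrupted gene was also read from the RefSeq gene table. Wnt2, Wnt5b, Wnt7a, Wnt16, Lrp6 and Tcf7l1 share chromosome 6 with Cav3. Wnt7a and Wnt5b are the closest, with 57 and 86 protein-coding genes between each and Cav3, while Tcf7l1 is 223 and Lrp6 is 315 genes away. Of these 6 members Wnt5b and Tcf7l1 were higher and Lrp6 lower. Whether sequence carried along with the knockout allele plays a part was not tested.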

How the data were processed

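RNA from 3 wild-type and 3 Cav-3 knockout mammary glands was read on Affymetrix mouse arrays, and titles gave the genotype and replicate number. The deposited values are log2 values, 1 per probe set and array, which the authors normalized by RMA according to the processing notes, per the labels. Its version is not given in the sources used here. RMA gives all arrays nearly one distribution, so a shift common to most transcripts would be removed, and folds of dim probe sets are understated. The number of arrays limits the precision.

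After 64 control sets were left out, 45037 probe sets were tested, knockout against wild type, with limma 3.58.1 (R 4.3.3), using lmFit and a two-sided eBayes test with the default prior, on 4 residual degrees of freedom. P-values were adjusted by Benjamini-Hochberg over all probe sets, at a threshold of 0.05, and SEs are moderated. The platform annotation gave 1 symbol to 34945 sets, several to 932 and was silent on 9160; symbols were updated through Entrez identifiers with RefSeq (GRCm38.p6). A gene is shown by its set with the highest mean over 6 arrays. Values by array are printed for members past the threshold, for a member with another probe set past it and, chosen after their values were seen, for members near it and for Axin2 and Ctnnb1. Other pathway genes are named up to 3 per list by smallest p, and those that did not pass were chosen after their values were seen. Members and lists were chosen with earlier results of these data known. The fit was tested first on simulated data with 50 changed probe sets of each size. It recovered 14% of changes of 0.5 on the log2 scale and 94% of changes of 1, with 10 false calls. A difference near 0.5 that did not pass is therefore not shown to be absent. Recovery in the real data, where more sets passed, can differ. Alternatives changed the normalization, filter, prior, weights, probe set choice, covariates, threshold and arrays used. Figures were drawn with matplotlib 3.10.9.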

Additional observations from a re-analysis of the deposited data

How the results depend on the processing

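Over 760 recomputed differences of the 48 members under all alternatives but other thresholds, 0 calls reversed, 39 calls were lost and 21 were gained. Wnt5a, Wnt5b, Rspo1, Fzd5, Lgr6, Dkk2 and Rnf43, 7 of the 17, kept their call in every alternative run, and 9 of 17 kept it without any 1 array. The number of higher members was 6 to 12 and of lower members 3 to 6 when 1 array was left out; it was 7 and 6 higher without wild type 2 or 3, and 3 lower without wild type 3 or knockout 3. At a threshold of 0.01 these numbers were 6 and 2, and at 0.1 the lower members numbered 8. The members' median ran from −0.01 (without wild type 2) to 0.08 without 1 array. Among other pathway genes 2 to 7 were higher and 1 to 3 lower without 1 array: 2 higher without wild type 3 or knockout 3, 7 without knockout 2, and 1 lower without wild type 2 or 3 or knockout 3. With the muscle covariate 5 were lower. The cause was not tested; fewer arrays also leave fewer degrees of freedom.

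Same-numbered arrays did not all deviate together (correlations of deviations −0.054, 0.185 and −0.018), which does not establish a pairing. With the replicate block 11 members were higher and 6 lower, Dkk3 was lost (adjusted p = 0.0652) and Wnt11 gained (0.0495), and among other pathway genes 8 were higher and Dact1 was lost (0.0563). The median of all probe sets was −0.0103 as deposited and 0.0040 after cyclic loess, so no scaling moved it by 0.1. Gained calls were those of Wnt7b, Wnt11, Fzd4, Lgr4, Lgr5 and Ctnnb1, 6 members. Signal near that of Y-linked sets limits what can be said of the 11 dim members and of the folds of Rspo1, Rnf43 and Wif1.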
